A study of Rattus norvegicus with 9 samples.

Results

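Metallothioneins and genes of the glucocorticoid response were followed through the arteries of adult rat offspring. A total of 7 gene symbols was chosen: Mt2A, Mt1, Hsd11b1, Nr3c1, Fkbp5, Tsc22d3 and Sgk1. Of these, 6 matched exactly 1 row each of the 30452 features in the count files. No row matched the symbol Tsc22d3, and that gene was not analysed here.

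Poly(A) RNA was sequenced from arteries of offspring aged 3 to 5 months, whose dams ate a standard diet during pregnancy. In the high-sucrose mesenteric group (replicates 1, 2 and 3) the dams drank water with 20% sucrose. In the pulmonary control group (replicates 1, 2 and 4) and the mesenteric control group (replicates 1, 2 and 3) the dams drank ordinary water. No transgene or direct treatment of the offspring is given in the labels, and they do not state that the replicates are different animals. P-values therefore measure the spread between samples only, and that spread may be technical.

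Metallothioneins are small cysteine-rich proteins that bind zinc and copper. Their genes are switched on by metals through the zinc-sensing factor Mtf1, and also by glucocorticoids and inflammatory signals. In glucocorticoid signalling, the enzyme encoded by Hsd11b1 regenerates active corticosterone inside cells, the hormone binds the receptor encoded by Nr3c1, and the receptor then moves to the nucleus and binds DNA. Fkbp5, Tsc22d3, Sgk1 and the metallothionein genes are widely used as target genes of the receptor, and Fkbp5 protein in turn lowers the receptor's affinity for hormone.

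The upstream sequences of the metallothionein pair are shown because Mt2A and Mt1 had the largest fold changes of the 6 genes in both artery comparisons below. They are the 250 bases before each gene's start, from RefSeq (GRCr8), written 5′ to 3′ on the gene's strand, which is the minus strand. The Mt2A window is chr19:10838709-10838958 and the Mt1 window is chr19:10832976-10833225. Capitals mark each match to the core of the metal response element, searched as TGCACNC and TGCGCNC on both strands.
Mt2A: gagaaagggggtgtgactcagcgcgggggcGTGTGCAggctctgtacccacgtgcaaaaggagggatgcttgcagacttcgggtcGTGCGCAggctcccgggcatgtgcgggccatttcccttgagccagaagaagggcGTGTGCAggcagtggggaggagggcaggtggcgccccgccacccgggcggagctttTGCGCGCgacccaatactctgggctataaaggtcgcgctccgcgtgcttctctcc
Mt1: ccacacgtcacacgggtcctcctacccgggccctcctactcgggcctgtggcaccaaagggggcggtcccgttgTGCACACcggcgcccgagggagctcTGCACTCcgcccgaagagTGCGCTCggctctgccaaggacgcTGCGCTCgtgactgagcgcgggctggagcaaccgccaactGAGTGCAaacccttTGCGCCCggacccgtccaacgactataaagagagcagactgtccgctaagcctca
The Mt2A window held 4 matches and the Mt1 window 6, with no overlap between matches. Among 33469 RefSeq windows of 250 bases, 0.266% held at least 4 matches and 0.0269% at least 6. A glucocorticoid response element, searched on both strands as GNACA and TGTNC with 3 bases between them, had 0 matches in the windows of Mt2A, Mt1, Nr3c1, Fkbp5, Sgk1 and Tsc22d3. It was found in 0.373% of the 33469 windows. These matches describe letters in a short window and say nothing of binding.

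Total counts per library ran from 10388231 to 15420546. Levels are CPM, in which every library is brought to the same total, here with TMM factors over the 9 libraries. Every library held the smooth muscle actin Acta2 and the endothelial gene Pecam1. Pulmonary replicate 4 stood apart: its 10 lymphocyte markers summed to 2108 CPM, against 15.3 to 45.1 CPM in the other libraries, and its 10 smooth muscle markers to 3730 CPM, against 11781 to 45406 CPM. Cardiac muscle markers summed to 22048 CPM in pulmonary replicate 2 and to 1083 and 1918 CPM in the other pulmonary libraries, against 33.4 to 110 CPM in mesenteric artery. Lung epithelial markers summed to 934 CPM in pulmonary replicate 4. Mesenteric control replicate 1 had the highest smooth muscle sum of the 9 libraries, 45406 CPM. It also had the lowest blood endothelial sum of the mesenteric libraries, 1627 CPM. In mesenteric control replicate 2 these sums were 11781 and 3409 CPM. The part of this spread in the levels given below was not tested. In such whole-tissue samples, fewer cells of a type and less RNA per cell cannot be told apart.

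**Figure D1:**
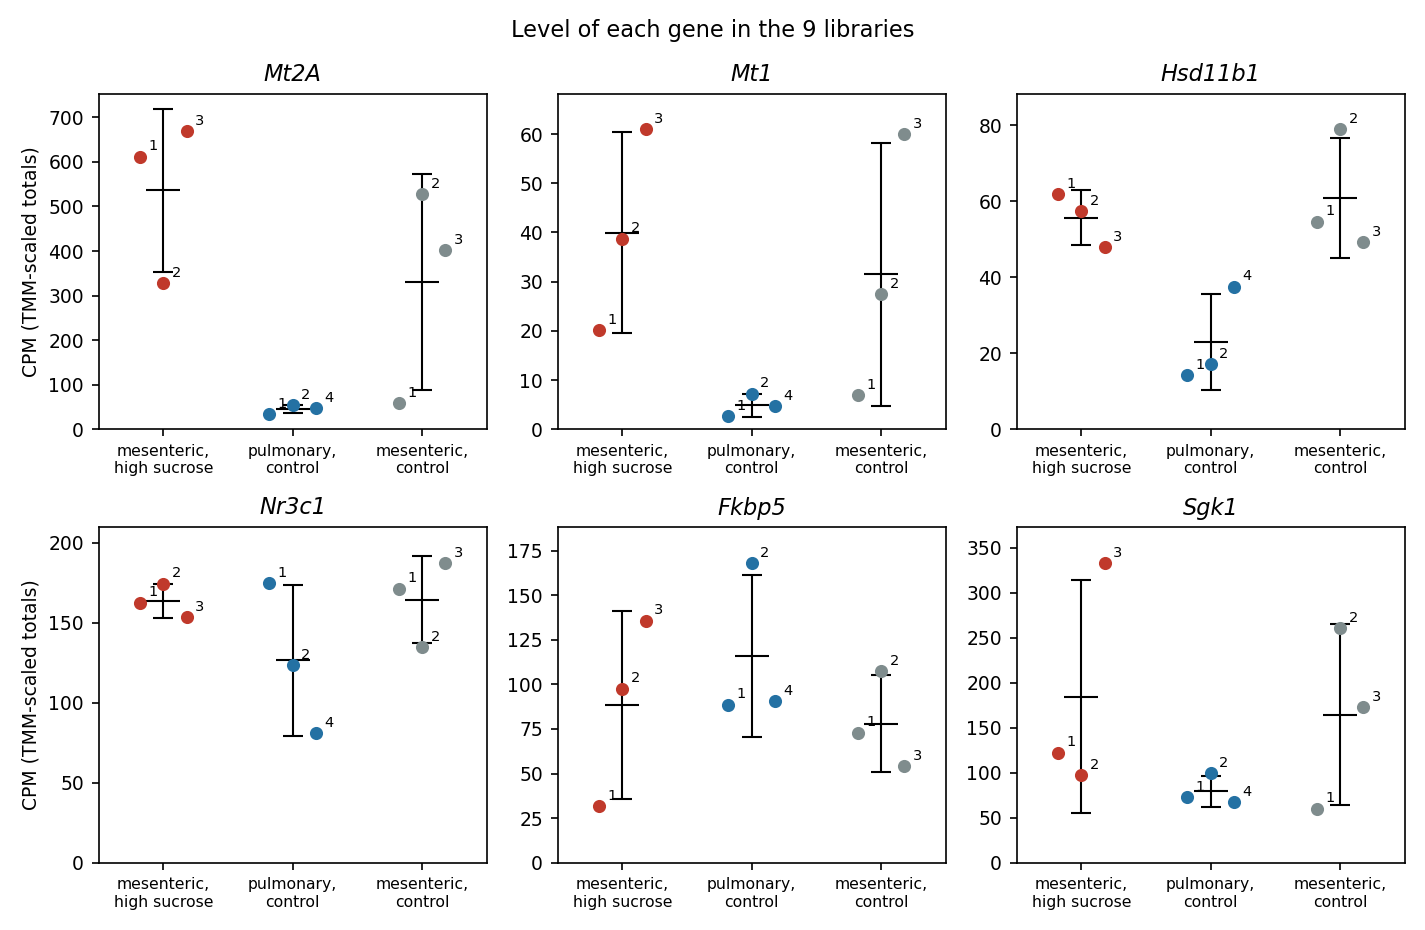
CPM of each matched gene in the 9 libraries, with high-sucrose mesenteric, pulmonary control and mesenteric control groups from left to right; points are libraries with their replicate numbers, and bars are mean and SD over 3 libraries. Mt2A lay between 34.8 and 53.7 CPM in pulmonary artery, below every mesenteric library, and mesenteric control replicate 1 lay just above it at 59.5 CPM.

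Mt2A, the metallothionein with the higher count in every library, had 612, 328 and 670 CPM in high-sucrose mesenteric replicates 1, 2 and 3. It had 34.8, 53.7 and 48.3 CPM in pulmonary replicates 1, 2 and 4, against 59.5, 527 and 403 CPM in mesenteric control replicates 1, 2 and 3. The pulmonary libraries were all lower than every mesenteric control, but mesenteric control replicate 1 lay close to them and far from the other mesenteric libraries. The means were 537 ± 183 CPM in high-sucrose mesenteric artery, 45.6 ± 9.75 CPM in pulmonary artery and 330 ± 242 CPM in mesenteric controls (SD, n = 3 each).

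Mt1, which lies on the same chromosome, had 20.2, 38.7 and 60.9 CPM in high-sucrose mesenteric replicates 1, 2 and 3. It had 2.65, 7.23 and 4.71 CPM in the pulmonary libraries, against 6.93, 27.5 and 60.0 CPM in mesenteric controls. Here mesenteric control replicate 1 fell among the pulmonary libraries, so that these 2 groups overlapped by 1 library. Both genes thus shared their low libraries, while the highest Mt2A levels were in high-sucrose replicates 1 and 3 and the highest Mt1 levels in replicate 3 of both mesenteric groups. Immediate early genes also had their highest sums in those libraries, at 11067 CPM in the high-sucrose and 11975 CPM in the control one, against 1999 to 3148 CPM in the other 4 mesenteric libraries.

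Hsd11b1, the enzyme that regenerates corticosterone, had 61.8, 57.4 and 47.8 CPM in high-sucrose mesenteric artery. It had 14.3, 17.1 and 37.5 CPM in pulmonary artery, against 54.6, 78.8 and 49.2 CPM in mesenteric controls. All pulmonary libraries were lower than all mesenteric ones, and the highest of them was replicate 4. Hsd11b2, which inactivates the hormone, stayed between 0.31 and 1.42 CPM over the 9 libraries and was left out by the filter on low counts. H6pd, which supplies the cofactor for Hsd11b1, ran from 19.6 to 35.0 CPM.

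Nr3c1, the glucocorticoid receptor, had 162, 174 and 153 CPM in high-sucrose mesenteric artery. It had 175, 124 and 80.8 CPM in pulmonary replicates 1, 2 and 4, against 171, 135 and 187 CPM in mesenteric controls. The lowest of the 9 libraries was pulmonary replicate 4, the library with the fewest smooth muscle and most lymphocyte marker counts, and the other libraries lay between 124 and 187 CPM. Nr3c2, the mineralocorticoid receptor, which also binds corticosterone, was lowest in the same library, at 7.55 CPM, against 30.3 to 49.9 CPM in the other libraries.

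Fkbp5, the immunophilin that restrains the receptor, had 31.9, 97.7 and 136 CPM in high-sucrose mesenteric replicates 1, 2 and 3. It had 88.6, 168 and 90.8 CPM in pulmonary artery, against 72.9, 107 and 54.0 CPM in mesenteric controls. Its lowest and its second highest library were both high-sucrose mesenteric, and all groups overlapped.

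Sgk1, a kinase that regulates ion transport, had 122, 97.6 and 333 CPM in high-sucrose mesenteric artery. It had 72.6, 99.4 and 67.2 CPM in pulmonary artery, against 60.1, 261 and 173 CPM in mesenteric controls. Mesenteric control replicate 1 was again the lowest mesenteric library, below all the pulmonary ones.

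The first comparison asks whether gene expression in the mesenteric artery differed with the dams' drinking water. None of the 6 genes passed the edgeR quasi-likelihood test at an adjusted p of 0.05 or had an unadjusted p under 0.05, and for all 6 the high-sucrose and control libraries overlapped. Of the 13995 features tested, 0% passed, 279 (1.99%) had an unadjusted p under 0.05, with 1.13% of all features lower at that p, and 838 (5.99%) had groups that did not overlap. Log2 fold changes were above 0 for 5 of the 6 genes, as for 50.3% of all features, and below 0 for 1, as for 49.7%. With DESeq2, 3 features (0.0214%) passed and none of the 6 genes. The log2 fold change of Mt2A was 0.70 ± 0.71 (SE), that of Mt1 0.36 ± 0.73 and that of Hsd11b1 −0.13 ± 0.23. Nr3c1 had 0.00 ± 0.19, Fkbp5 0.19 ± 0.52 and Sgk1 0.17 ± 0.64. The adjusted p of each was 1.00 in the edgeR test.

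Single libraries moved these values. Without mesenteric control replicate 1, the log2 fold change of Mt2A was 0.20 and that of Mt1 −0.12, and without mesenteric control replicate 2 that of Mt2A was 1.23. Without high-sucrose replicate 3, Sgk1 had −0.59. For Nr3c1 the range with each library left out in turn was −0.11 to 0.10, the narrowest of the 6.

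The second comparison asks how the pulmonary and mesenteric arteries of control offspring differed. Of the 6 genes, 5 had a negative log2 fold change and 3 of them, Mt2A, Mt1 and Hsd11b1, an unadjusted p under 0.05. None passed at an adjusted p of 0.05 in edgeR, in which 2 of 14315 features (0.0140%) passed. Of all features, 616 (4.30%) were lower and 605 (4.23%) higher at an unadjusted p under 0.05, and 45.5% had a value below 0 and 54.5% above. For Mt2A and Hsd11b1 the pulmonary libraries were all lower than the mesenteric ones, as for 1086 features (7.59%) of those tested. Another 6.41% were higher with no overlap, and none of the 6 genes was.

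Mt2A had a log2 fold change of −2.87 ± 0.77 in pulmonary artery, with an unadjusted p of 0.00852 and an adjusted p of 0.420 in edgeR. Mt1 had −2.70 ± 0.81, with an unadjusted p of 0.0135 and an adjusted p of 0.464 in edgeR. DESeq2, in which 408 features (2.85%) passed, gave nearly the same fold changes of −2.85 and −2.68 and called both, with adjusted p of 0.00745 and 0.0290. The fold changes were as large without pulmonary replicate 4, at −2.91 for Mt2A and −2.67 for Mt1. With each of the 6 libraries left out in turn they stayed negative, from −3.37 to −2.34 for Mt2A and from −3.18 to −1.85 for Mt1.

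Hsd11b1 had a log2 fold change of −1.39 ± 0.44, with an adjusted p of 0.493 in edgeR and of 0.125 in DESeq2. Without pulmonary replicate 4 it was −1.96 ± 0.29, with an adjusted p of 0.0882 in edgeR. Sgk1 had −1.06 ± 0.53 (adjusted p = 0.613 in edgeR), Nr3c1 −0.38 ± 0.33 (adjusted p = 0.756) and Fkbp5 0.56 ± 0.38 (adjusted p = 0.693). Fkbp5 was the only one of the 6 with a positive value. For Nr3c1 the value was −0.14 without pulmonary replicate 4 and 0.07 with the pulmonary group reduced to replicate 1.

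**Figure D2:**
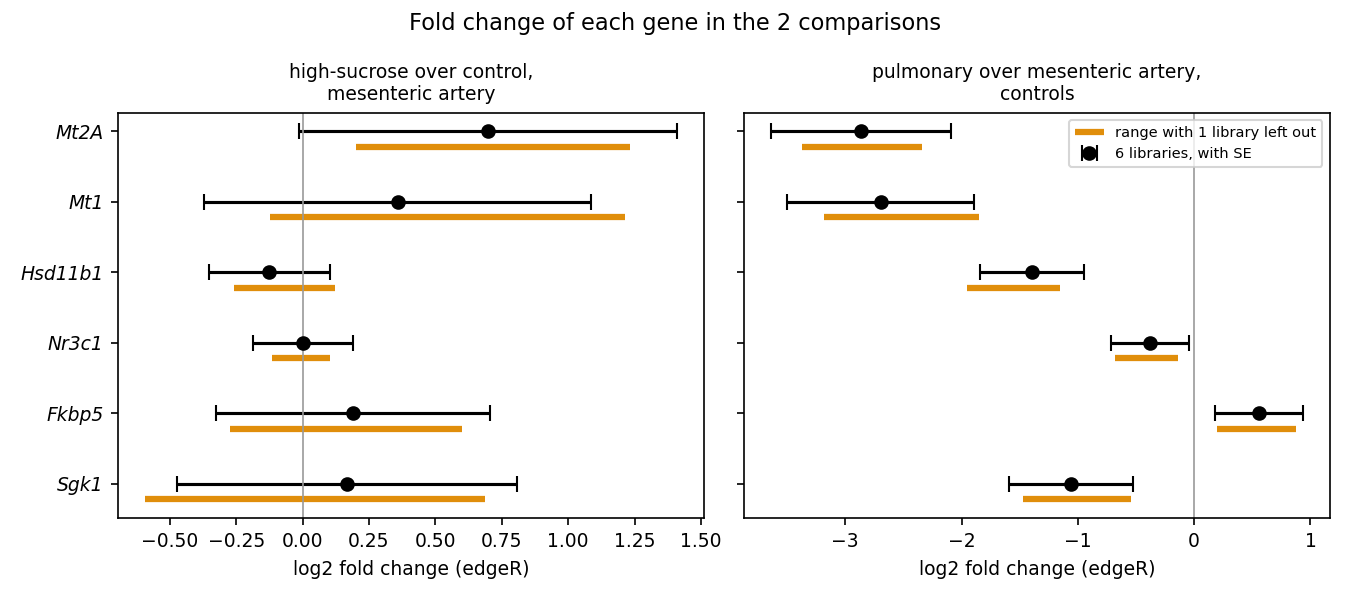
Log2 fold change of each matched gene in edgeR for high-sucrose over control mesenteric artery (left) and pulmonary over mesenteric artery of controls (right); points are values over 6 libraries with SE, and orange lines span the values with 1 library left out. On the right, Mt2A, Mt1, Hsd11b1, Nr3c1 and Sgk1 lie left of 0 over their whole orange ranges and Fkbp5 right of it, while on the left the ranges of Mt1, Hsd11b1, Nr3c1, Fkbp5 and Sgk1 cross 0.

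Several marker lists had, like the metallothioneins, mostly negative log2 fold changes in pulmonary artery. Within mesenteric artery the lists differed from each other in how they lay beside Mt2A, which had 59.5 and 527 CPM in mesenteric control replicates 1 and 2. In these libraries immediate early genes summed to 3148 and 3134 CPM. Blood endothelial markers there summed to 1627 and 3409 CPM, and smooth muscle markers to 45406 and 11781 CPM. The 12 immediate early genes, which respond within minutes to stimulation of cells, summed to 805 to 1510 CPM in pulmonary artery, against 3134 to 11975 CPM in mesenteric controls. Of them 11 were tested and all 11 had negative log2 fold changes, with a median of −2.19, while Junb was listed at 0 in every library. The 10 blood endothelial markers summed to 764 to 2180 CPM in pulmonary artery, against 1627 to 3409 CPM in mesenteric controls, and 9 of 10 had negative values, with none at 0 counts in a library. Of the smooth muscle markers 8 of 10 had negative values (median −0.70), and of the fibroblast markers 9 of 10 (median −0.50). Pulmonary replicate 4 had the lowest endothelial, smooth muscle and fibroblast sums of the 9 libraries, at 764, 3730 and 2850 CPM. Smooth muscle sums were 22772 and 24541 CPM in pulmonary replicates 1 and 2, and endothelial sums 1737 and 2180 CPM. These lay within the ranges of mesenteric controls, 11781 to 45406 CPM for smooth muscle. Fibroblast sums in those libraries were 10919 and 12118 CPM, against 13048 to 19652 CPM in mesenteric controls. The median log2 fold change of all features was 0.06. The part of these lists in the differences of Mt2A, Mt1 and Sgk1 was not tested.

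Within the metallothionein pair, Mt2A took 96.8%, 89.4% and 91.7% of the summed Mt1 and Mt2A counts in high-sucrose mesenteric replicates 1, 2 and 3. It took 92.9%, 88.1% and 91.1% in pulmonary artery, against 89.6%, 95.03% and 87.0% in mesenteric controls. The Wilson 95% intervals of high-sucrose replicate 1 (96.4% to 97.2%) and mesenteric control replicate 2 (94.5% to 95.5%) lay above those of the other mesenteric libraries. The interval covers counting error only, and the share is of counts, not corrected for transcript length. The mean share was 92.6% ± 3.78 in high-sucrose and 90.5% ± 4.09 in control mesenteric artery (SD, n = 3 each; two-sided exact permutation p = 0.60). It was 90.7% ± 2.42 in pulmonary artery and 90.5% ± 4.09 in mesenteric controls (n = 3 each; two-sided exact permutation p = 1.00), and 3 against 3 libraries cannot give a p below 0.10. As a ratio of counts, Mt2A per Mt1 ran from 8.47 to 30.3 in high-sucrose mesenteric artery, 7.43 to 13.1 in pulmonary artery and 6.71 to 19.1 in mesenteric controls, so the groups overlapped. Reads shared with near-identical metallothionein copies or pseudogenes could not be separated, since the counting method is not given in the sources used here.

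Other metallothioneins had low counts or none. Mt1m had no counts in any library, Mt4 had counts in 1 library only, and the brain form Mt3 ran from 0.25 to 1.43 CPM. Junb and Slc39a7 also had no counts in any library, so absence and a loss in counting cannot be told apart for Mt1m. The zinc sensor Mtf1 ran from 10.5 to 15.7 CPM and the zinc exporter gene Slc30a1, itself a target of Mtf1, from 5.10 to 9.30 CPM. In pulmonary over mesenteric artery, Mtf1 had a log2 fold change of −0.05 ± 0.30 and Slc30a1 of −0.06 ± 0.36, beside −2.87 for Mt2A.

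Across the 9 libraries, log2 CPM of Mt2A and Mt1 had a Pearson r of 0.92, and of 0.75 after removal of group means. Mt1 ranked 25 among the 12909 features ranked by likeness to Mt2A. Mt2A and Sgk1 had r = 0.82, and 0.85 after removal of group means, while Mt2A and Fkbp5 had r = −0.29. These values are descriptions over 9 libraries that differ in tissue and depth. Before removal of group means they include the low levels of the pulmonary libraries. Mesenteric control replicate 1, the lowest of its group for Mt2A, Mt1 and Sgk1, stays in the values after removal of group means.

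**Figure D3:**
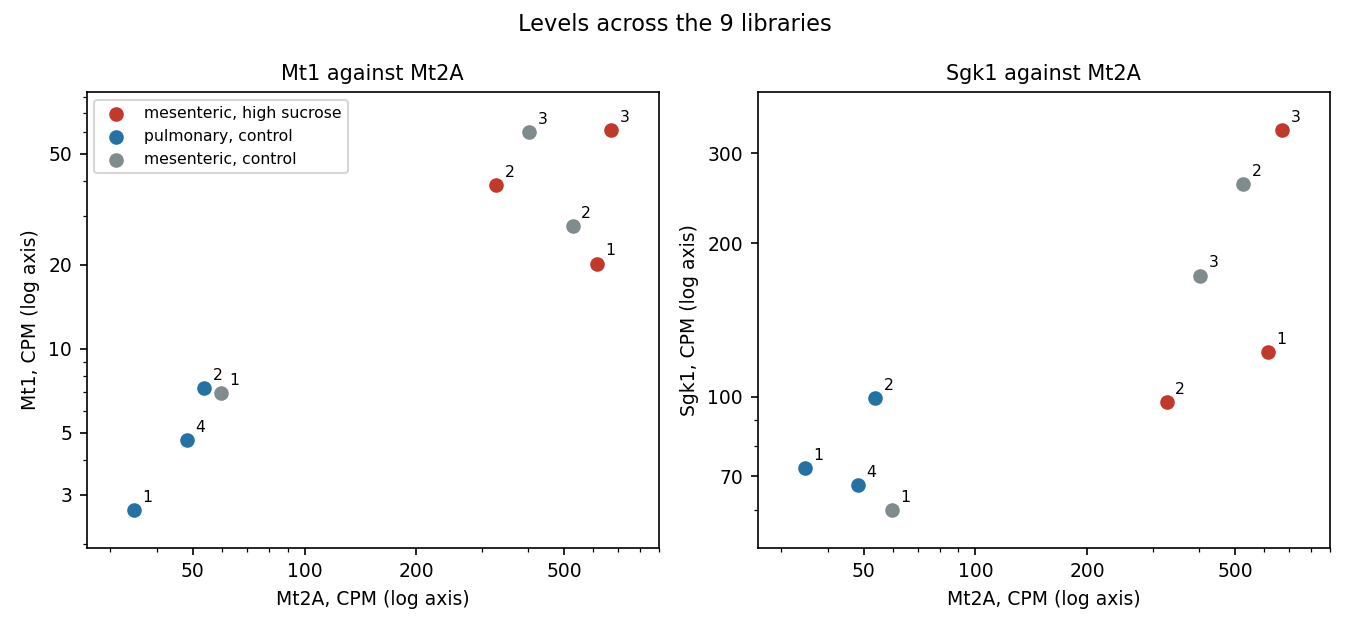
Mt1 (left) and Sgk1 (right) against Mt2A in the 9 libraries, in CPM on log axes; colours are groups and numbers are replicates. The 3 pulmonary libraries and mesenteric control replicate 1 form the low end of the Mt2A axis, at 34.8 to 59.5 CPM. The other 5 mesenteric libraries lie above 300 CPM of Mt2A. On the Sgk1 axis high-sucrose mesenteric replicate 2, at 97.6 CPM, lies below pulmonary replicate 2, at 99.4 CPM.

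Features closely like Mt2A were Klf10 (r = 0.97), a zinc finger factor, and Itpkc (0.96), an inositol phosphate kinase. Those most like Mt1 were Midn (0.99), the unnamed AC128848.1 (0.98) and the histone demethylase gene Kdm6b (0.96). Hsd11b1 was most like the lymphatic chemokine gene Ccl21 (0.97), Rasa2 (0.97) and the Hox gene Hoxc4 (0.95). Nr3c1 was most like Sycp2 (0.99), the splicing regulator Ptbp2 (0.98) and Rhobtb3 (0.98), and Sgk1 most like the endothelial gene Fgd5 (0.97), Rps6ka3 (0.97) and Shank3 (0.96). Fkbp5 had no close match: its nearest were Ddx25 (0.86), Kcnj10 (0.86) and Arfgef1 (0.85).

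Against the marker lists, the median r of Mt2A was 0.74 with the 10 blood endothelial markers and 0.67 with the 11 tested immediate early genes, all 11 of them above 0. That of Sgk1 was 0.72 and 0.61. Nr3c1 had a median r of 0.84 with the 10 smooth muscle markers and of −0.81 with 8 lymphocyte markers, and pulmonary replicate 4 was the lowest library of the first list and the highest of the second. Fkbp5 had −0.30 with the immediate early genes, 0 of 11 above 0. Over all features the median r was −0.05 for Mt2A and 0.00 for Nr3c1.

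The wider pathways held 155 listed genes, of which 145 were found. These lists include Mt2A, Mt1, Hsd11b1, Nr3c1, Fkbp5 and Sgk1, so their values are counted again here. Between high-sucrose and control mesenteric artery, 121 were tested, none passed in edgeR, 5 (4.13%) had an unadjusted p under 0.05 and 4 (3.31%) did not overlap, against 1.99% and 5.99% of all features. Between pulmonary and mesenteric artery, 123 were tested, none passed in edgeR, 19 (15.4%) had an unadjusted p under 0.05 and 21 (17.1%) did not overlap, against 8.53% and 14.0% of all features. Mt2A, Mt1 and Hsd11b1 were among the 19, and Mt2A and Hsd11b1 among the 21. DESeq2 called 8 of the 123, Mt2A and Mt1 among them, against 2.85% of all features.

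In the zinc list, 13 of 20 tested genes were above 0 with high sucrose, with a median log2 fold change of 0.10. Without high-sucrose replicate 3 it was 9 of 20, with a median of −0.02. The zinc importer gene Slc39a14 had 0.56 ± 0.22, Slc39a8, another importer, 0.31 ± 0.24 and the zinc transporter gene Slc30a4 0.23 ± 0.16. In pulmonary over mesenteric artery the median was −0.09, with 13 of 20 below 0, and Mt2A, Mt1 and the importer gene Slc39a4 (−1.32 ± 0.55) stood at the low end. Copper and iron genes had medians of −0.05 with high sucrose and −0.02 in pulmonary artery, over 12 tested genes each. Without mesenteric control replicate 2 the medians were 0.20 and 0.23, and without pulmonary replicate 4 that in pulmonary artery was −0.25. Ccs, the copper chaperone of superoxide dismutase, had −0.71 ± 0.29 with high sucrose, and the transferrin receptor gene Tfrc 0.45 ± 0.27. Hmox1, which degrades heme, had 131, 15.8 and 21.1 CPM in high-sucrose replicates 1, 2 and 3, against 6.53, 31.7 and 6.45 CPM in controls. Its log2 fold change of 1.90 ± 0.99 was 0.32 without high-sucrose replicate 1. In pulmonary artery Slc31a2, a copper transporter gene, had −0.70 ± 0.24, the ferritin heavy chain gene Fth1 −0.60 ± 0.32 and Tfrc 1.36 ± 0.59, which was −0.41 with the pulmonary group reduced to replicate 1.

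Around the receptor, 16 of 20 tested chaperone and coregulator genes were above 0 with high sucrose (median 0.17), where 50.3% of all features were. Without high-sucrose replicate 3 it was 12 of 20, with a median of 0.03. Hsp90aa1, the chaperone that holds the unbound receptor, had 1.08 ± 0.63. Fkbp4, an immunophilin that opposes Fkbp5 on the receptor, had 167, 87.2 and 277 CPM in high-sucrose mesenteric artery, against 125, 64.8 and 72.1 CPM in controls, a log2 fold change of 1.03 ± 0.45 that was 0.53 without high-sucrose replicate 3. Nr3c2 had −0.32 ± 0.18. The 8 heat shock genes of a separate list summed to 1726 to 4214 CPM in high-sucrose mesenteric artery, against 1241 to 1589 CPM in controls, and all 8 had positive log2 fold changes. Their part in the values of Hsp90aa1 and Fkbp4 was not tested. In pulmonary over mesenteric artery the list was even, with 10 of 20 above 0. There Ncoa3, a receptor coactivator, had 0.44 ± 0.20, Fkbp4 0.64 ± 0.31 and the chromatin remodelling gene Smarca4 0.70 ± 0.35.

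Of the steroid metabolism list, 5 of 12 found genes were tested. With high sucrose, Star, which carries cholesterol into mitochondria, had a log2 fold change of 0.91 ± 0.36 and the steroid reductase gene Srd5a1 0.30 ± 0.57. In pulmonary artery Srd5a1 had 1.38 ± 0.74 and the steroid hydroxylase gene Cyp21a1 −0.71 ± 0.59, beside −1.39 for Hsd11b1. Both had low levels. Srd5a1 had 1.58 to 6.26 CPM in pulmonary artery and 0.61 to 1.98 CPM in mesenteric controls. Cyp21a1 had 0.39 to 1.49 CPM and 1.21 to 1.64 CPM in these groups. Without pulmonary replicate 4 the log2 fold changes were 0.58 for Srd5a1 and −0.35 for Cyp21a1.

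Among glucocorticoid-induced genes, 21 of 36 tested were above 0 with high sucrose, with a median of 0.14. Without high-sucrose replicate 3 it was 13 of 36 (median −0.13), and without mesenteric control replicate 1 it was 14 of 36 (median −0.13). Angptl4, an inhibitor of lipoprotein lipase, had 70.2, 51.6 and 79.3 CPM in high-sucrose mesenteric artery, against 35.9, 43.9 and 35.9 CPM in controls. All high-sucrose libraries were higher, and the log2 fold change was 0.80 ± 0.21, with an unadjusted p of 0.00589 and an adjusted p of 1.00 in edgeR. Cdkn1c, a cell cycle inhibitor, had 9.18, 12.0 and 12.7 CPM in high-sucrose mesenteric artery, against 20.4, 17.7 and 17.7 CPM in controls. All high-sucrose libraries were lower, and the log2 fold change was −0.71 ± 0.21, with an unadjusted p of 0.0115 and an adjusted p of 1.00 in edgeR. In the same comparison 9 of 10 tested adipocyte markers were above 0 (median 0.59), with sums of 1034 to 2309 CPM in high-sucrose and 955 to 1343 CPM in control mesenteric artery. All 10 fibroblast markers were below 0 (median −0.43), and 4 of them did not overlap. Their part in the values of Angptl4 and Cdkn1c was not tested. Hif3a, an inhibitor of the hypoxia response, had 1.35 ± 0.77, which was 0.02 without high-sucrose replicate 2. Of all features, 2.66% were higher and 3.33% lower with no overlap.

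The low Fkbp5 level of high-sucrose replicate 1 was shared by other induced genes, chosen here after their values were seen. Zbtb16, Klf9, Klf15 and Pdk4 were each lowest of the 6 mesenteric libraries there, at 12.3, 44.2, 21.4 and 103 CPM. That library was the lowest of the 6 for 10 of 36 induced genes (27.8%), against 12.8% of all features, while high-sucrose replicate 3 was the highest for 17 of 36 (47.2%), against 16.4%. The 10 include Fkbp5, Zbtb16, Klf9, Klf15 and Pdk4, and the 17 include Mt2A, Mt1, Fkbp5 and Sgk1. These shares are therefore not separate from the values given above. Among controls, replicate 1 was the lowest of the 6 for 9 of 36 (25.0%, against 16.5%) and replicate 3 the highest for 9 of 36 (25.0%, against 15.5%). Mt2A, at 612 CPM in high-sucrose replicate 1, was not low there.

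In pulmonary over mesenteric artery, 31 of 37 tested glucocorticoid-induced genes were below 0, with a median of −0.50, where 45.5% of all features were below 0. Pulmonary libraries were all lower for 8 of the 37, Mt2A among them, against 7.59% of all features. The transcription factor gene Cebpd had 34.0, 72.6 and 76.2 CPM in pulmonary artery, against 115, 208 and 305 CPM in mesenteric controls, a log2 fold change of −1.78 ± 0.49 (adjusted p = 0.426 in edgeR). Of the others, chosen after their values were seen, the related Cebpb had −1.43 ± 0.52, the actin-binding Fam107a −2.27 ± 0.73, Angptl4 −1.24 ± 0.54, Cdkn1c −0.94 ± 0.40 and the anti-inflammatory protein gene Anxa1 −0.91 ± 0.46. The other 6 of the 37 were above 0, Fkbp5 (0.56) among them, with the largest at 3.56. Without pulmonary replicate 4, 26 of 37 were below 0 and the median was −0.22.

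Genes known to be repressed by glucocorticoids were also mostly below 0 in pulmonary artery, 13 of 15 with a median of −0.78, and 13 of 14 with a median of −2.54 without pulmonary replicate 4. Il6, an inflammatory cytokine, had 0.25, 0 and 0.52 CPM in pulmonary artery, against 4.98, 127 and 56.4 CPM in mesenteric controls. Its log2 fold change was −7.87 ± 1.54 (adjusted p = 0.265 in edgeR and 4.6e-08 in DESeq2). The neutrophil chemokine gene Cxcl1 had 0.50, 0.79 and 6.65 CPM in pulmonary artery, against 7.00, 115 and 281 CPM in mesenteric controls, a log2 fold change of −5.62 ± 1.62. Nos2, which makes nitric oxide, had 1.93 ± 0.55. Its levels were low, 0.75 to 1.61 CPM in pulmonary artery against 0.27 to 0.34 CPM in mesenteric controls. The medians of the induced and the repressed list were both below 0 in pulmonary artery, and the part of hormone action in either was not tested. With high sucrose, 8 of 14 repressed genes were above 0 with a median of 0.04, and Cxcl10 (1.19 ± 1.04), Ccl5 (−1.08 ± 0.97) and Sele (0.60 ± 0.70) had the smallest p. Without high-sucrose replicate 3 the count above 0 was 2 of 14 (median −0.32), without mesenteric control replicate 1 it was 4 of 14 (median −0.35) and without mesenteric control replicate 3 it was 11 of 14 (median 0.25).

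**Figure D4:**
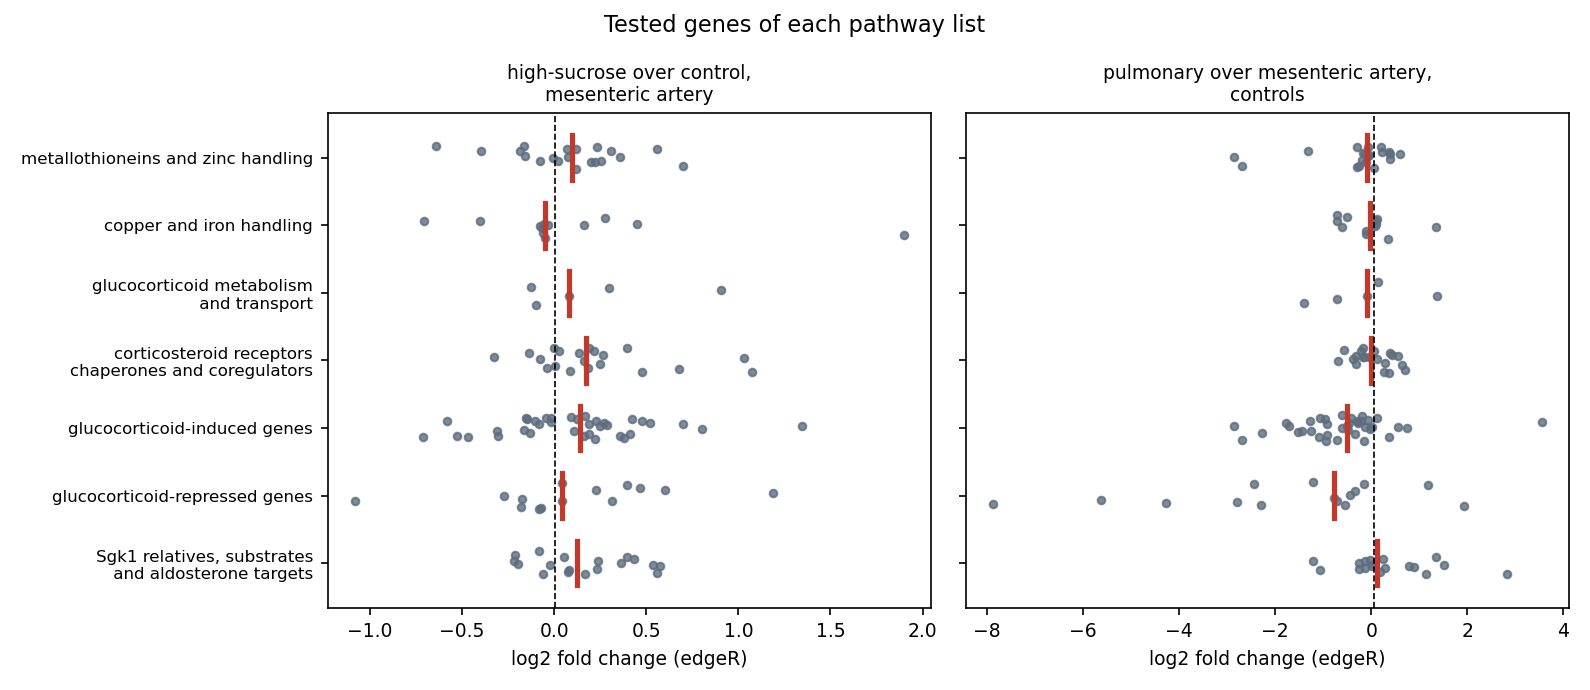
Log2 fold change in edgeR of the tested genes of 7 pathway lists, for high-sucrose over control mesenteric artery (left) and pulmonary over mesenteric artery of controls (right); grey points are genes, red bars list medians and the dashed line the median of all features. On the right, the medians of the induced (−0.50) and repressed (−0.78) lists both lie left of the dashed line at 0.06, and on the left all list medians lie between −0.05 and 0.17.

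Among relatives and substrates of Sgk1 and targets of aldosterone, 18 genes were tested in each comparison. The median was 0.13 with high sucrose and 0.13 in pulmonary artery. It was 0.0046 without high-sucrose replicate 2 and −0.16 without pulmonary replicate 2. The sodium pump subunit gene Atp1b1 had 37.8, 222 and 122 CPM in pulmonary artery, against 18.2, 14.1 and 21.5 CPM in mesenteric controls, a log2 fold change of 2.82 ± 0.62 (adjusted p = 0.333 in edgeR and 0.00091 in DESeq2). With the pulmonary group reduced to replicate 1 it was 1.06. All pulmonary libraries were higher, with the most in replicate 2, the library with the most cardiac muscle marker counts. The Sgk1 substrate gene Ndrg1 had −1.21 ± 0.48. With high sucrose, Atp1b1 had 0.54 ± 0.26, and the mTOR complex genes Rictor and Rptor had 0.43 ± 0.35 and 0.23 ± 0.18. The value of Rictor was 0.02 without high-sucrose replicate 2.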

How the data were processed

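Rat artery poly(A) RNA was measured in 9 libraries, 3 per group. The authors deposited raw whole-number counts, 1 table of genes for each library. The build was rn7, per the submitters' processing notes, while information on the aligner, counter, annotation and strand was not given in the sources used here. Of 30452 features per file, 235 names stood on more than 1 line, and each line was a feature of its own. No label gives a batch or date.

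Genes were matched by exact symbol. Every feature past filterByExpr was tested by quasi-likelihood in edgeR 4.0.16 (R 4.3.3, limma 3.58.1) with TMM factors, on the 6 libraries of a comparison, with Benjamini-Hochberg adjustment over all features tested and a threshold of 0.05. SEs were taken from the F statistic and the log2 fold change. Total counts per library, 10388231 to 15420546, set the counting error only, and reads carry no molecular identifiers. Libraries of a group differed by a chi-square per degree of freedom of 42.5 to 312, far above counting error. Promoter windows came from RefSeq (GRCr8), with 6 of 7 symbols matched.

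The members, lists, tests and alternatives were chosen with earlier results of these data known. The rule for named genes takes all members, up to 3 tested genes of each pathway list with the smallest p in each comparison, any list gene that passes, the 3 features most like each member by Pearson r of log2 CPM (prior count 1), and 6 defining markers. Other metallothioneins, Mtf1, Slc30a1, Hsd11b2, H6pd and Nr3c2 were added for their roles. Values of some single genes that the rule names are left out. Alternatives were other size factors, tables without mitochondrial genes, DESeq2 1.42.0, limma-voom, other filters, a fit of all 9 libraries, a replicate block, and each library left out. A pulmonary group of replicate 1 alone was added after seeing the data. The test was tried on simulated data.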

Additional observations from a re-analysis of the deposited data

How the results depend on the processing

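Between pulmonary and mesenteric artery, edgeR called none of the 6 genes, none of the pathway genes and 2 of all features. DESeq2 called 2, 8 and 408 of them, with the 2 among the 8, and 3 of all features between high-sucrose and control mesenteric artery. The count of all features called between the arteries was 33 with limma-voom, 38 with all 9 libraries in 1 fit, 0 to 22 with each library left out and 0 with the pulmonary group reduced to replicate 1. Which features were called beyond the 6 genes and the lists was not compared, and the cause of these shifts was not tested. Same-numbered libraries did not all deviate together: the correlations of their deviations over all features were 0.209, −0.287 and 0.128 in the sucrose comparison and 0.169 and −0.168 between arteries. With the replicate number as a replicate block, 36 of all features and none of the 6 genes passed between the arteries, and none of either in the sucrose comparison. In that fit, 22 of 37 glucocorticoid-induced genes were below 0 in pulmonary artery, with a median of −0.10.

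With high sucrose, signs turned under limma-voom for Hsd11b1 (0.047), Nr3c1 (−0.056) and Fkbp5 (−0.081), and without a filter for Nr3c1 (−0.0075). With each library left out, log2 fold changes ran from −0.12 to 1.22 for Mt1, −0.26 to 0.12 for Hsd11b1, −0.11 to 0.10 for Nr3c1, −0.27 to 0.60 for Fkbp5, −0.59 to 0.69 for Sgk1, −0.065 to 0.73 for Srd5a1, −2.39 to 0.030 for Ccl5 and −0.57 to 2.13 for Cxcl10. With pulmonary replicate 1 alone, Nr3c1 had 0.068, Tfrc −0.41, Cyp21a1 0.023 and Smarca4 −0.0029. The lone library is assumed there to vary like the others. The difference of 0.17 points in the Mt2A share between the arteries was −0.048 as a log2 ratio of the genes, −1.77 points with the replicate block and −1.58 to 2.42 points with each library left out. In the sucrose comparison the share difference of 2.09 points ran from 0.0064 to 4.33 points. Among mean levels, 5 moved by more than 1 SD on totals without mitochondrial genes. With 3 libraries per group and the spread between them seen for Mt2A and Mt1, a p above the threshold does not show equal levels.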
